A study of Oryza sativa with 12 samples.

Results

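OsWRKY71 (gene ID 4328512), OsNAC6 (gene ID 4325006) and BZIP52 (gene ID 4341753) are 3 rice transcription factors known from stress responses, and they were followed here across 4 genotypes of dissected inflorescence meristems. They were found by symbol or synonym in the probe-to-gene annotation, and each had 1 probe, so they stand for 3 of the 1718 named genes with a probe. The genes were chosen by their log2 difference of fon2-3 minus WT, which earlier results of the same data had placed among the most negative. Their values in that comparison are therefore a description, and no test is given for them there. Among the 1718 named genes, ranked by the difference of fon2-3 minus WT from the most negative upwards, OsWRKY71 was number 2, OsNAC6 number 3 and BZIP52 number 6.

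The data are 12 single-colour Affymetrix arrays, with 3 arrays each for fon2-3, asp1-10, the double mutant fon2-3 asp1-fe, and WT. The samples were inflorescence meristems of early stage with a few bracts left on, from rice plants grown in pots outdoors. The product of FON2 is a signalling peptide related to CLAVATA3 that restrains floral meristem growth, and that of ASP1 is a transcriptional corepressor related to TOPLESS. The double mutant carries asp1-fe and the asp1-10 line carries asp1-10, so in any comparison of these lines the effects of fon2-3 and of the asp1 allele cannot be told apart. The labels name no WT strain, do not say whether a sample came from 1 plant or several, and give no date or batch. P-values therefore measure only the spread between these samples.

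WRKY factors bind W-box elements in promoters, NAC factors form a large plant-specific family, and bZIP factors bind DNA as dimers held by a leucine zipper. In rice, OsWRKY71 represses gibberellin-induced alpha-amylase genes in the grain's aleurone layer and is induced by wounding and pathogens. OsNAC6, also called SNAC2, is induced by cold, drought, salt and abscisic acid, and plants that overproduce it tolerate such stress better. BZIP52, also called RISBZ5, responds to cold, and plants that overproduce it are more sensitive to cold and drought.

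The values are log2 signals, so a difference of 1 is a 2-fold difference if the unstated log base is 2, and levels of different probes are not set against each other. OsWRKY71 read 6.80, 6.01 and 7.69 in the fon2-3 arrays, 8.11, 9.06 and 7.16 in asp1-10, 8.36, 7.16 and 8.18 in fon2-3 asp1-fe, and 9.91, 9.10 and 9.44 in WT. All 3 WT arrays lay above all 9 mutant arrays, although asp1-10 replicate 2 (9.06) came close to the lowest WT array (9.10). The lowest value of all was in fon2-3 replicate 2. OsWRKY71 averaged 6.83 ± 0.841 in fon2-3, 8.11 ± 0.949 in asp1-10, 7.90 ± 0.646 in fon2-3 asp1-fe and 9.48 ± 0.408 in WT (SD, n = 3 each).

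OsNAC6 followed the same order of genotypes. It read 6.41, 5.20 and 6.75 in fon2-3, 7.59, 7.76 and 5.71 in asp1-10, 7.68, 6.78 and 6.36 in fon2-3 asp1-fe, and 8.97, 8.27 and 8.70 in WT. The WT arrays again lay above every mutant array, and the lowest reading was again fon2-3 replicate 2. The means were 6.12 ± 0.816 in fon2-3, 7.02 ± 1.13 in asp1-10, 6.94 ± 0.675 in fon2-3 asp1-fe and 8.65 ± 0.352 in WT (SD, n = 3 each). The wide spread in asp1-10 came from replicate 3, which was 1.31 below the genotype mean (deviation -1.31).

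BZIP52 differed from the other 2 genes in the double mutant, where its arrays were low and tightly grouped. It read 5.57, 5.08 and 5.54 in fon2-3, 7.04, 6.96 and 5.68 in asp1-10, 5.69, 5.78 and 5.70 in fon2-3 asp1-fe, and 7.39, 8.33 and 7.39 in WT. Replicate 3 of asp1-10 lay with the double mutant arrays, whereas replicates 1 and 2 lay nearer to WT. The means were 5.39 ± 0.275 in fon2-3, 6.56 ± 0.763 in asp1-10, 5.72 ± 0.0496 in fon2-3 asp1-fe and 7.70 ± 0.540 in WT (SD, n = 3 each). The median of all values on the arrays was 5.55, and the fon2-3 mean of BZIP52 lay below it. A signal that low was not compared with any background level, so whether the difference of fon2-3 from WT is understated for BZIP52 is not known.

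**Figure D1:**
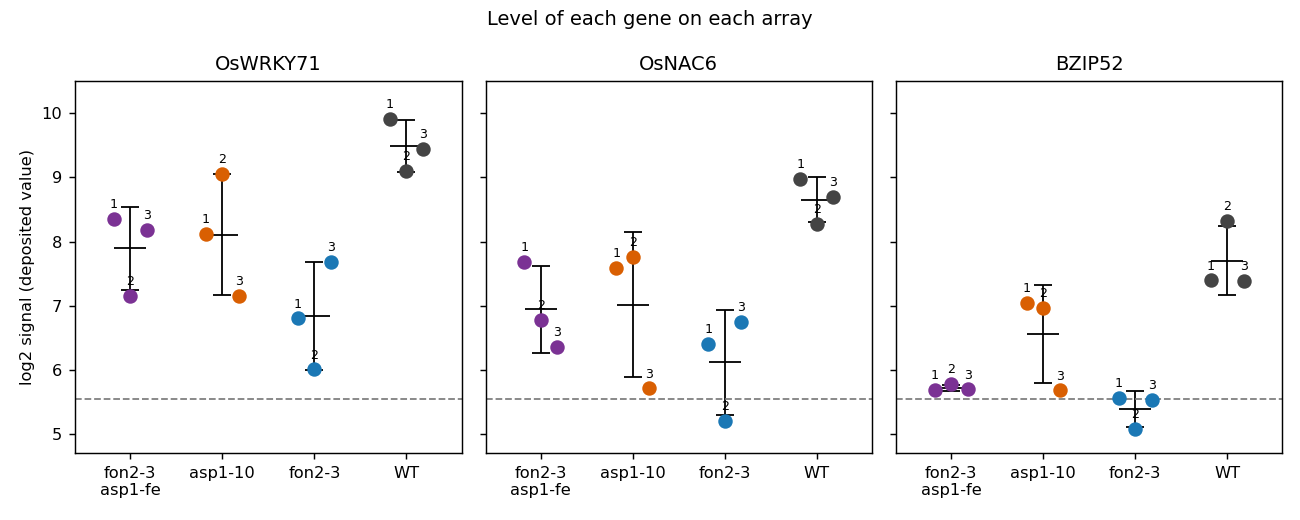
Log2 signal of OsWRKY71, OsNAC6 and BZIP52 on each array, with fon2-3 asp1-fe, asp1-10, fon2-3 and WT from left to right. Points are arrays numbered by replicate, horizontal bars and whiskers are the mean and SD of 3 arrays, and the dashed line is the median of all values (5.55). In each panel the 3 WT arrays lie above the 9 mutant arrays.

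In all 3 genes the genotype means stood in the order WT, asp1-10, fon2-3 asp1-fe and fon2-3 from high to low. The neighbours asp1-10 and fon2-3 asp1-fe overlapped in all 3 genes. The neighbours fon2-3 asp1-fe and fon2-3 overlapped for OsWRKY71 and OsNAC6, and for BZIP52 they were parted by a narrow gap.

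In the comparison on which the genes were chosen, OsWRKY71 was 6.28-fold lower in fon2-3 than in WT (log2 difference -2.65, SE 0.517), OsNAC6 was 5.77-fold lower (log2 difference -2.53, SE 0.555) and BZIP52 was 4.96-fold lower (log2 difference -2.31, SE 0.347). The arrays of fon2-3 and WT did not overlap for 3 of 3 genes, against 11.9% of all probes with fon2-3 entirely below WT, and 1.44% of all probes were called lower in this comparison. These counts follow from the choice of the genes and are given only as its description.

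The only comparison of fon2-3 plants with plants that lack fon2-3, and that shares no array with the one used to choose the genes, is fon2-3 asp1-fe against asp1-10. In it 0 of 3 genes passed the limma test at an adjusted p of 0.05, and 1 of 3 had an unadjusted p below 0.05, as did 7.79% of all probes in either direction. Over all probes 0.00182% were called lower, so few genes of any kind passed there. The arrays of fon2-3 asp1-fe and asp1-10 overlapped in all 3 genes, and 5.27% of all probes had the double mutant entirely below asp1-10. OsWRKY71 averaged 7.90 in fon2-3 asp1-fe and 8.11 in asp1-10, a log2 difference of -0.21 (95% interval -1.35 to 0.93, adjusted p = 0.964). OsNAC6 averaged 6.94 in fon2-3 asp1-fe and 7.02 in asp1-10, a log2 difference of -0.08 (95% interval -1.29 to 1.14, adjusted p = 0.99).

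Those 2 intervals are wide enough to hold a 2-fold change in either direction for OsNAC6, and a 2-fold decrease for OsWRKY71. BZIP52 averaged 5.72 in fon2-3 asp1-fe and 6.56 in asp1-10, a log2 difference of -0.84 (95% interval -1.60 to -0.08, unadjusted p = 0.0335, adjusted p = 0.603). Without asp1-10 replicate 3 the BZIP52 difference was -1.28 (adjusted p = 0.102), with 2 asp1-10 arrays left, and it was -0.69 for OsWRKY71 and -0.73 for OsNAC6. The signs of the OsWRKY71 and OsNAC6 differences turned when some other arrays were left out.

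The double mutant and asp1-10 were each compared with WT, using the same WT arrays on which the genes had been chosen, so a high WT level enters all of these comparisons. In fon2-3 asp1-fe, BZIP52 fell to 5.72, against 7.70 in WT, a 3.95-fold decrease (log2 difference -1.98, SE 0.347, adjusted p = 0.0195). It was the only 1 of the 3 genes past the threshold, where 1.3% of all probes were called lower. The call ended without WT replicate 1 (adjusted p = 0.0513), without double mutant replicate 1 (0.0558) and without double mutant replicate 2 (0.0762), and the difference stayed between -2.14 and -1.67 with each array left out in turn. Adjusted p ran from 0.00455 to 0.0762 over all 19 alternatives run.

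OsNAC6 read 1.71 log2 units lower in fon2-3 asp1-fe than in WT (difference -1.71, SE 0.555, adjusted p = 0.103). It passed the threshold when only the 6 arrays compared were fitted (adjusted p = 0.047) and without asp1-10 replicate 3 (0.0341), and adjusted p reached 0.253 under the alternatives. OsWRKY71 differed by -1.59 (SE 0.517, adjusted p = 0.104), with adjusted p from 0.0549 to 0.311 over the alternatives. In all 3 genes each double mutant array lay below each WT array, as did 12.1% of all probes.

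In asp1-10 against WT, 0 of 3 genes passed the limma test, while 3 of 3 had an unadjusted p below 0.05, as did 18.5% of all probes in either direction. OsWRKY71 differed by -1.37 (SE 0.517, adjusted p = 0.181), OsNAC6 by -1.63 (SE 0.555, adjusted p = 0.141) and BZIP52 by -1.14 (SE 0.347, adjusted p = 0.107). Every asp1-10 array was below every WT array for 3 of 3 genes, as for 12% of all probes, and 0.734% of all probes were called lower. Replicate 3 of asp1-10 had the lowest value of that genotype in all 3 genes. Without it the differences were -0.90, -0.98 and -0.70 for OsWRKY71, OsNAC6 and BZIP52.

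Further quantities share the fon2-3 arrays with the comparison used to choose the genes and are given as values without a test. OsWRKY71 was higher in asp1-10 than in fon2-3 by 1.28 (SE 0.517), OsNAC6 by 0.90 (SE 0.555) and BZIP52 by 1.17 (SE 0.347). In fon2-3 asp1-fe they were higher than in fon2-3 by 1.07, 0.82 and 0.33, with the same standard errors. The sum of double mutant and WT minus both single mutants, which is 0 when the 2 effects add on the log scale, was 2.44 (SE 0.732) for OsWRKY71, 2.45 (SE 0.785) for OsNAC6 and 1.47 (SE 0.490) for BZIP52. Both single-mutant differences together would place the double mutant below the median of all values in all 3 genes. Signals that low were not compared with any background level. The fon2-3 difference, which enters the sum, is the value that chose the genes. That choice favoured a sum above 0 beforehand, and nothing is read from it.

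**Figure D2:**
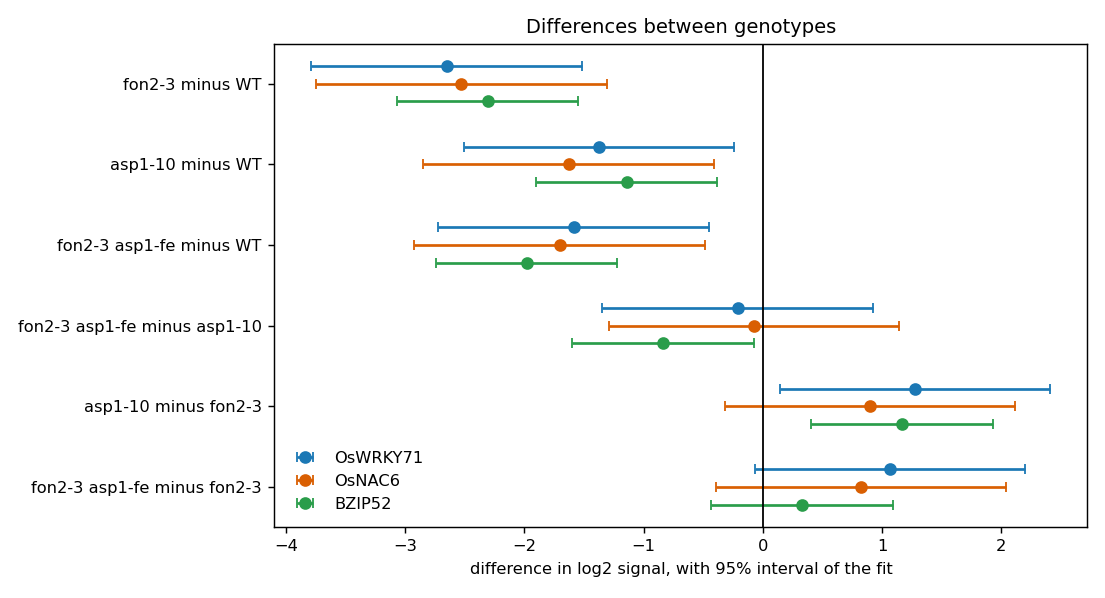
Differences in log2 signal between genotypes for OsWRKY71, OsNAC6 and BZIP52, with points for the fitted difference and bars for its 95% interval. The comparisons with WT are all below 0. In fon2-3 asp1-fe minus asp1-10 the OsWRKY71 and OsNAC6 intervals include 0 and that of BZIP52 runs from -1.60 to -0.08.

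The genes also varied between arrays of the same genotype. Over the 12 deviations from the genotype means, OsWRKY71 and OsNAC6 had Pearson r = 0.809 and Spearman rho = 0.853. Without the 2 arrays farthest from the OsWRKY71 median, asp1-10 replicates 2 and 3, r was 0.697. For BZIP52 the values were r = 0.407 with OsWRKY71 and r = 0.574 with OsNAC6. Without the 2 farthest arrays these were -0.03 and 0.06, so the relations of BZIP52 rested on those arrays, which were asp1-10 replicates 2 and 3 for OsWRKY71 and asp1-10 replicate 3 with fon2-3 replicate 2 for OsNAC6. The deviations share genotype means estimated from 3 arrays each, and these values are descriptions without a p-value.

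In 2 arrays all 3 genes were below their genotype mean: asp1-10 replicate 3, by -0.95, -1.31 and -0.88 for OsWRKY71, OsNAC6 and BZIP52, and fon2-3 replicate 2, by -0.83, -0.92 and -0.32. Genes of the low-oxygen response (PDC1 and PDC2, pyruvate decarboxylases; NSHB2, a haemoglobin; GAPC3, a glycolytic enzyme) were low on the same arrays, with a mean deviation of -2.60 in asp1-10 replicate 3 and -0.88 in fon2-3 replicate 2. The low-oxygen genes were also low on double mutant replicates 2 and 3 (-0.60 and -0.61). There OsWRKY71 deviated by -0.74 and 0.28, OsNAC6 by -0.16 and -0.58, and BZIP52 by 0.06 and -0.03. On WT replicate 1 the 4 low-oxygen genes deviated by -2.05 while OsWRKY71 and OsNAC6 were at their highest, 0.43 and 0.32 above the WT mean, and BZIP52 was 0.31 below it (deviation -0.31). PDC1, for example, read 9.55, 5.81 and 7.76 in fon2-3, 11.72, 11.46 and 5.35 in asp1-10, 9.51, 6.05 and 5.49 in fon2-3 asp1-fe, and 6.02, 11.58 and 10.94 in WT. Its groups all overlapped. In fon2-3 against WT 0 of the 4 low-oxygen genes passed the limma test and 0 had an unadjusted p below 0.05, with a median log2 difference of -1.46. The part of the low-oxygen state in the values of OsWRKY71, OsNAC6 and BZIP52 was not tested.

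**Figure D3:**
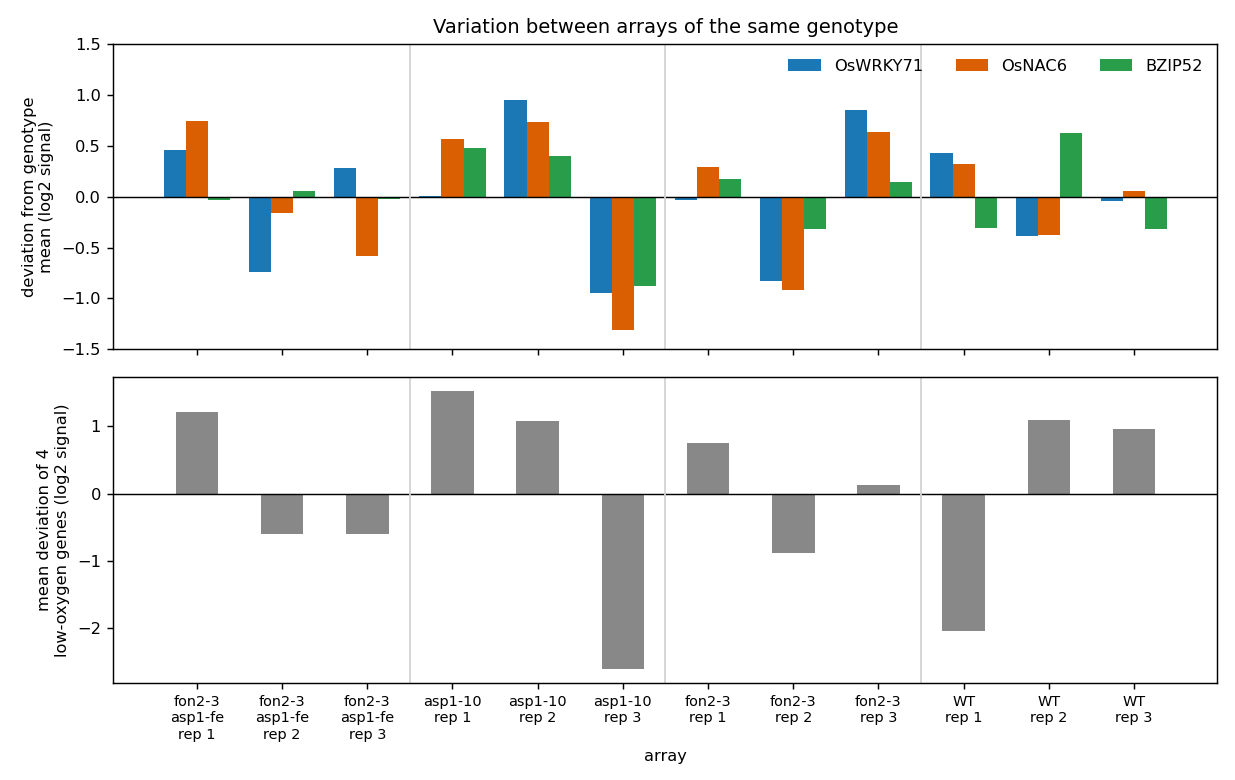
Deviation of each array from its genotype mean in log2 signal, for OsWRKY71, OsNAC6 and BZIP52 (upper panel) and as the mean of 4 low-oxygen genes (lower panel). Arrays run from fon2-3 asp1-fe to WT. All 3 genes are low on asp1-10 replicate 3 and fon2-3 replicate 2, as are the low-oxygen genes, whereas on WT replicate 1 OsWRKY71 and OsNAC6 are high and the low-oxygen genes low. The low-oxygen genes are also low on fon2-3 asp1-fe replicates 2 and 3, where the 3 genes are mixed.

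The labelled tissue was checked by its markers. OSH1, a KNOX homeobox gene of meristem cells, averaged 8.39 in fon2-3, 8.51 in asp1-10, 8.87 in fon2-3 asp1-fe and 7.70 in WT, well above the median of all values. Of 12 leaf and bract markers 3 were dim in every genotype, among them the chlorophyll-binding genes CAB1R and CAB2R, while the photosystem genes PSAG, PSB28 and OEE3 had every genotype mean above the median. OEE3 lay only just above the median in fon2-3 (5.59) and fon2-3 asp1-fe (5.63). Of 3 anther markers UDT1 and TDR were dim, and GAMYB, which also acts in gibberellin signalling, had every genotype mean above the median. The mean level of 5 meristem markers ran from 6.87 to 7.49 over the fon2-3 arrays, from 7.17 to 7.30 over asp1-10, from 7.04 to 7.53 over fon2-3 asp1-fe and from 6.07 to 6.70 over WT. In fon2-3 2 of the 5 rose against WT, OSH71 by 1.07 and OSH15 by 1.06, and 0 fell, while 80 of the 1718 named genes rose. Of the 5, 1 read below WT (difference -0.26), with every fon2-3 array below every WT array, without passing the threshold.

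The mean level of 12 leaf and bract markers ran from 6.26 to 6.32 over the fon2-3 arrays, from 6.06 to 6.36 over asp1-10, from 6.38 to 6.51 over fon2-3 asp1-fe and from 6.57 to 6.64 over WT. In fon2-3 2 of the 12 fell, OEE3 of photosystem II by 1.90 (difference -1.90) and PSAH of photosystem I by 1.19 (difference -1.19), and 0 rose. Of the 12, 8 read below WT and 4 above, and 41 of the 1718 named genes fell. In fon2-3 asp1-fe against asp1-10 the lists gave 1 call, the YABBY gene DL, which marks carpels and leaf midribs. DL averaged 10.20 in fon2-3 asp1-fe and 8.71 in asp1-10, a log2 difference of 1.49 (adjusted p = 0.0219), and it fell in asp1-10 against WT, which averaged 10.19 (difference -1.49, adjusted p = 0.00805). The call against asp1-10 ended without WT replicate 1 or 2, fon2-3 replicate 1, asp1-10 replicate 1 or 2 or any double mutant array, with only the groups compared and with the replicate block, with adjusted p from 0.00808 to 0.249 over the alternatives. CESA4, a cellulose synthase of secondary walls, was the only 1 of 2 vascular markers to rise in fon2-3, by 0.51 (adjusted p = 0.0354). In fon2-3 0 of 3 heat genes and 0 of 3 anther genes passed, with 0 and 1 at an unadjusted p below 0.05. In asp1-10 against WT 2 of the 3 heat genes rose, HSP17.4 by 2.71 (adjusted p = 0.0133) and HSF11 by 3.07 (adjusted p = 0.0414), and 1 of the 3 anther genes rose, GAMYB by 0.71 (adjusted p = 0.0454). Among all named genes 40 of 1718 rose there. The remaining heat gene read lower (difference -0.60), with every asp1-10 array below every WT array, without passing the threshold. The GAMYB call ended without any 1 of the 12 arrays and the HSF11 call without any 1 but asp1-10 replicate 3, while with only the groups compared the calls of HSP17.4 and of DL against WT ended too. The part of these genes in the asp1-10 values of OsWRKY71, OsNAC6 and BZIP52 was not tested. FON2 and ASP1 themselves were not analysed here. Mean levels of the meristem markers were thus lowest, and those of the leaf and bract markers highest, in WT. The median array mean of the leaf and bract markers was 6.26 in asp1-10 and 6.31 in fon2-3. The arrays of these 2 genotypes overlapped, so no order between them is read from this list. The part of these markers in the result was not tested. In such samples fewer cells of a type and less RNA per cell cannot be told apart.

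Other members of the 3 families, as far as a symbol or synonym named them, were compared in fon2-3 and WT. Any family member listed only under a locus or clone name was left out. In that comparison 7.04% of the 1718 named genes were called in either direction and 26.4% had an unadjusted p below 0.05. The median difference of all named genes was 0.02. Of 4 other WRKY genes, 0 passed the limma test and 0 had an unadjusted p below 0.05, with differences from -0.34 for OsWRKY24 to 0.13 for WRKY9, and 3 of the 4 were dim in every genotype. Of 6 other NAC genes 0 passed and 1 had an unadjusted p below 0.05, with a median difference of -0.11, and 3 of the 6 were dim. NAC068, also called OsNAC4 and known for a part in hypersensitive cell death, was 1.41 lower (difference -1.41, adjusted p = 0.0594), with 6.09, 5.84 and 6.52 in fon2-3, against 7.77, 6.93 and 7.98 in WT. That gene thus read lower on every fon2-3 array than on any WT array without passing the threshold.

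Among 14 other bZIP genes 1 fell and 0 rose, with a median difference of 0.07. BZIP39, a bZIP factor of the response to unfolded proteins in the endoplasmic reticulum, fell by 0.90 (difference -0.90, SE 0.219, adjusted p = 0.0415). It read 7.21, 7.57 and 7.25 in fon2-3, against 8.13, 8.42 and 8.19 in WT, so the arrays did not overlap. The bZIP gene with the lowest estimate was OsbZIP63, at -1.41 with adjusted p = 0.17. OsbZIP41 had the highest estimate, at 1.04 with adjusted p = 0.0517. It read 7.87, 8.54 and 7.65 in fon2-3, against 6.69, 7.21 and 7.03 in WT, so every fon2-3 array lay above every WT array without the gene passing the threshold.

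Genes matched by name to pathways in which the 3 factors are known were also compared in fon2-3 and WT. In that comparison 41 of the 1718 named genes fell and 80 rose. Of 56 genes matched as abscisic acid and dehydration genes 2 fell and 0 rose (median difference -0.05): OsPP2C62, by 1.19 (difference -1.19, adjusted p = 0.0424), and OsPP2C39, by 0.94 (difference -0.94, adjusted p = 0.0476), both protein phosphatases of the 2C type. Such phosphatases of any kind were taken in by name, so a place in the list shows no part in abscisic acid signalling. The lowest estimate was that of OsPP2C30, at -1.34 with adjusted p = 0.0705. Each of its fon2-3 arrays lay below each WT array without the gene passing the threshold. Of 27 genes matched as defence genes 1 rose and 0 fell (median difference -0.11). The riser was OsRac1, a small GTPase of immune signalling, at 0.47 (adjusted p = 0.0482). This list also took in an actin gene and tubby-like genes through shared synonyms.

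NH1, the rice NPR1 gene tied to OsWRKY71 in defence, averaged 7.35 ± 0.411 in fon2-3 and 7.27 ± 0.172 in WT (SD, n = 3 each, adjusted p = 0.849). Of 23 jasmonate genes 0 passed the limma test, 4 had an unadjusted p below 0.05, against 26.4% of all named genes, and the median difference was 0.02. Of 7 alpha-amylase and gibberellin genes, which include possible targets of OsWRKY71, GA20OX3 (gibberellin synthesis) fell by 0.70 (difference -0.70, adjusted p = 0.0439) and 0 rose. Of the 7, 3 had an unadjusted p below 0.05. The alpha-amylase genes amy2A, AMY3D and AMY3B were dim in every genotype. WRKY51, PBZ1, RISBZ1 and SNAC1 were not analysed here.

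In fon2-3 against WT 10 genes of the lists, markers included, were called, and many of these calls ended when 1 array was left out. The number of calls over all probes also varied widely with 1 array left out, as given in the closing section. Of these 10 genes 0 kept the call without WT replicate 1, without WT replicate 3, without fon2-3 replicate 2 or without fon2-3 replicate 3, and 2 kept it without WT replicate 2. Between 5 and 10 kept it without any 1 of the other arrays, and no direction turned.

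**Figure D4:**
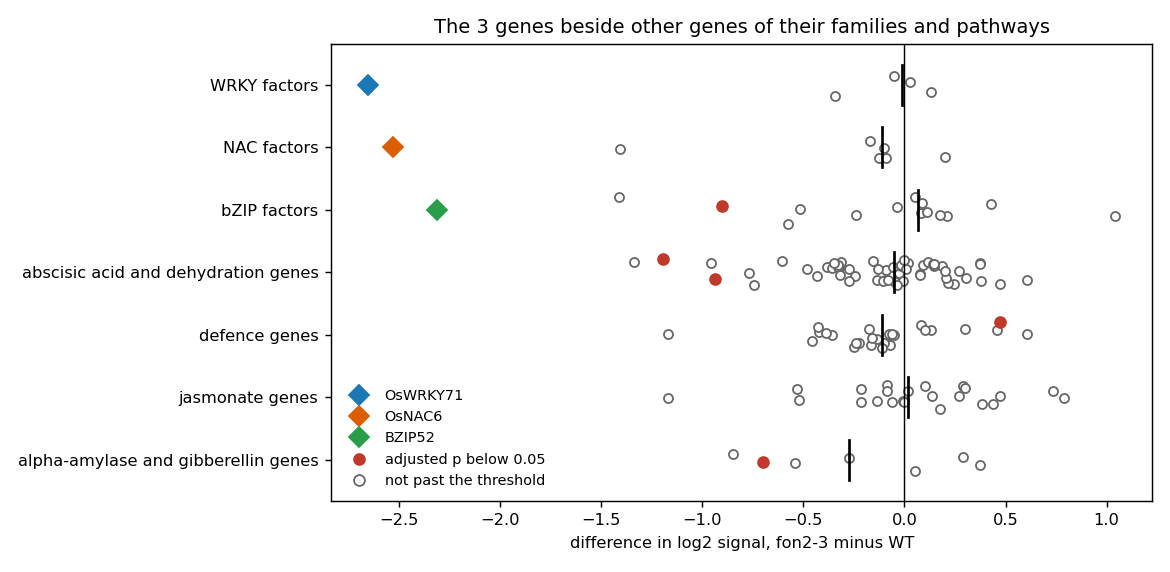
Log2 differences of fon2-3 minus WT for other genes matched by name to the 3 families and to 4 pathways (circles, with filled ones past an adjusted p of 0.05), the median of each list (vertical bars), and OsWRKY71, OsNAC6 and BZIP52 in the rows of their families (diamonds). The 3 chosen genes lie below all other genes shown in the rows of their families, as their choice would bring about.

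The named genes whose levels followed each factor most closely were looked up among 1215 other named genes with a genotype mean above the median of all values, by Pearson r over the 12 arrays. These arrays share the differences between genotypes, and the r values are descriptions. For OsWRKY71 the highest were LOGL3, of a family of cytokinin-activating enzymes (r = 0.933), OsNAC6 (0.932), OsSWEET4, a sugar transporter (0.922), and the zinc-finger genes OsC3H2 (0.914) and OsC3H8 (0.907). For OsNAC6 they were OsPP2C39 (0.970), LIR1, a light-induced chloroplast protein (0.954), OEE3 (0.943), OsC3H2 (0.942) and OsPSY1, a carotenoid synthesis enzyme (0.941).

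LIR1 had the most negative difference of all named genes in fon2-3, and it shows how these profiles look. It read 6.85, 5.31 and 7.51 in fon2-3, 8.12, 8.64 and 5.68 in asp1-10, 7.31, 7.17 and 5.56 in fon2-3 asp1-fe, and 9.78, 8.72 and 9.55 in WT. As for OsNAC6, fon2-3 replicate 2 and asp1-10 replicate 3 were the low arrays of their genotypes and the WT arrays were the highest. For BZIP52 the closest genes were the LOL2 gene with ID 4352767, of the LSD1-type zinc-finger family (0.934), SAT1 (0.922), OEE3 (0.922), XDH, a xanthine dehydrogenase (0.895), and a chaperonin gene (0.894).

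With genotype means removed, the genes closest to BZIP52 were others. They were CPK7, a calcium-dependent protein kinase (r = 0.970), the calcium sensor CBL9 (0.928), CIPK2 (0.923) and CIPK16 (0.881), kinases that such sensors bind, and the MAP kinase gene MPK8 (0.908). None of these 5 passed the test in fon2-3 against WT (adjusted p from 0.172 to 0.997), so they followed BZIP52 from array to array and did not share a called difference there. CPK7 read 7.32, 6.67 and 6.99 in fon2-3, 7.90, 8.10 and 6.39 in asp1-10, 6.85, 7.07 and 6.88 in fon2-3 asp1-fe, and 7.20, 8.27 and 7.48 in WT. WT replicate 2 was its highest array, as for BZIP52.

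For OsNAC6 the closest genes by deviations were LIR1 (0.958), NOS1 (0.954), OsPP2C39 (0.942), NOL, a chlorophyll b reductase (0.931), and OEE3 (0.926). For OsWRKY71 they were OsTLP3, a tubby-like gene (0.876), ABCI12, an ABC transporter subunit (0.874), Glup3, a vacuolar processing enzyme (0.874), LOGL3 (0.865) and NOL (0.842). OsNAC6 was number 9 in the order for OsWRKY71, and BZIP52 was number 202. OsWRKY71 and OsNAC6 thus varied more alike between arrays of a genotype than either did with BZIP52.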

How the data were processed

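Log2 signals of 54922 probes on 12 arrays were taken as deposited; per the submitters' processing notes the authors used Affymetrix Expression Console 1.3. The sources used here do not give the background correction, the normalization or the log base, and base 2 was assumed from the range of the values. Array medians ran from 5.51 to 5.60. The annotation gave 15829 probes 1 symbol and 440 probes several; current names and synonyms came from the RefSeq gene table of the assembly ASM3414082v1 through gene IDs. A gene with several probes was represented by the brightest, and the 3 genes had 1 probe each. limma 3.58.1 in R 4.3.3 estimated a mean for each genotype from all 12 arrays together, with 8 residual degrees of freedom. Tests were two-sided, with Benjamini-Hochberg adjustment over all probes of a comparison and a threshold of 0.05, under which a gene is said to have risen or fallen. The fit was tested on simulated data. An exact permutation test of 3 against 3 arrays cannot give a p below 0.1. The number of arrays limits the precision. A probe whose highest genotype mean lay below 5.55 is called dim. The genes and lists were chosen with earlier results of these data known. Lists were matched by symbol or synonym. Named genes were list members past the threshold with the largest differences, the 5 closest by each r, and genes tied to a factor. NAC068, OsWRKY24, WRKY9, OsbZIP63, OsbZIP41, OsPP2C30, HSP17.4, HSF11, PSAG, PSB28 and the alpha-amylase genes were named after their values were seen. Alternatives are given in the closing section.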

Additional observations from a re-analysis of the deposited data

How the results depend on the processing

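Differences of OsWRKY71, OsNAC6 and BZIP52 between each mutant and WT kept their direction under all 19 alternatives: scaling by cyclic loess or array medians, leaving out dim probes, fitting only the groups compared, another variance prior, array weights, a replicate block, and leaving out each of 12 arrays. Leaving out 1 array gave, for fon2-3 minus WT, -3.08 to -2.24 for OsWRKY71, -2.84 to -2.07 for OsNAC6 and -2.47 to -2.00 for BZIP52, and for fon2-3 asp1-fe minus WT -2.08 to -1.42 for OsNAC6 and -2.14 to -1.67 for BZIP52. OsNAC6 passed there with only the groups compared (-1.71). For fon2-3 asp1-fe minus asp1-10 the range was -0.69 to 0.26 for OsWRKY71, which turned to 0.263 when asp1-10 replicate 2 was left out and to 0.159 when double mutant replicate 2 was. It was -0.73 to 0.29 for OsNAC6, which turned to 0.209 and 0.293 without asp1-10 replicates 1 and 2, and to 0.00456 and 0.215 without double mutant replicates 2 and 3. The cause was not tested.

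Probes called, over fon2-3 minus WT, asp1-10 minus WT, fon2-3 asp1-fe minus WT and fon2-3 asp1-fe minus asp1-10 in that order, numbered 2866, 1157, 2358 and 8. They numbered 4718, 2507, 4191 and 14 without dim probes, where fewer were tested. Array weights gave 4421 and 4192 for fon2-3 and for fon2-3 asp1-fe against WT. Only the groups compared gave 2 in the second and 3 in the fourth, and the trended prior 1775 in the second. With an absolute log2 change of at least 1 there were 1134, 496 and 989 in the first 3. Leaving out 1 array gave 1 to 4554, 163 to 1202, 18 to 3998, and 4 to 100. The replicate block gave 1475, 508, 1147 and 4 and changed no call of the 3 genes, while 4 of the 10 list genes called in fon2-3 against WT kept their call. Same-numbered arrays of different genotypes had correlations of deviations from -0.182 to 0.106, so the numbers were not taken as pairs. Averaging several probes of a gene was not run, since each gene had 1. The alternatives for list genes were added after the data were seen.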
